A study of Mus musculus with 50 samples.

Results

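The Tcf/Lef family of DNA-binding proteins is the nuclear end point of canonical Wnt signalling, and its 4 mouse genes, Tcf7, Lef1, Tcf7l1 and Tcf7l2, were followed through the RNA-seq libraries of a study on β-catenin and its partner proteins in mouse embryonic stem (ES) cells. The members were the rows carrying these 4 gene symbols, 4 of 17043 genes listed in a table of FPKM values and 4 of 55421 genes in each of 3 tables of TPM values. FPKM and TPM are both levels scaled to transcript length and library size. The 32 RNA libraries fell into 13 groups. V6.5 cells, a hybrid mouse ES line, were kept in 2i, a medium whose MEK and GSK3 inhibitors hold ES cells in the naive state, and carried short hairpins against GFP as a control (shGFP, n = 6), β-catenin (shBcat, n = 2), E2F6 (shE2F6, n = 2) or HP1γ (labelled shHP1r, n = 2). A line labelled QKO was kept in 2i with shGFP or shBcat (n = 3 each, labelled 48 h). V6.5 cells with no hairpin in their label were profiled in 2i and as epiblast-like cells (epiLC) at 24 and 48 h (n = 2 each). V6.5 epiLC with shBcat were profiled at 24, 48 and 96 h and beside control epiLC at 96 h (n = 2 each); no hairpin is given in the labels of these controls. The labels do not spell out QKO, name no altered gene for it, and do not say from which event its 48 h was counted. An inhibitor of GSK3 was therefore present in every 2i group, the controls included. The labels give neither the number of hairpins per target nor whether a line was 1 clone.

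All family members bind DNA through an HMG box and recruit β-catenin through an amino-terminal stretch. Without β-catenin they hold Groucho/TLE corepressors at their targets, and β-catenin binding turns the complex towards activation. Tcf7l1 (Tcf3 in the older ES cell literature) acts mainly as a repressor in mouse ES cells, where it restrains naive genes such as Nanog, Esrrb and Tfcp2l1. Tcf7 (Tcf1) is the member usually linked to activation by β-catenin in these cells. Lef1 is known as a target of Wnt signalling as well as its effector, and it is a common marker of the formative epiblast. Tcf7l2 (Tcf4) is best known for maintaining intestinal stem cells.

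The genes lie on 4 chromosomes of the GRCm38.p6 assembly. Tcf7 (ENSMUSG00000000782) spans chromosome 11 from 52246527 to 52283383 on the minus strand, and Lef1 (ENSMUSG00000027985) spans chromosome 3 from 131110297 to 131224357 on the plus strand. Tcf7l1 (ENSMUSG00000055799) spans chromosome 6 from 72626371 to 72789045 on the minus strand, and Tcf7l2 (ENSMUSG00000024985) spans chromosome 19 from 55741797 to 55933659 on the plus strand. All 4 are protein-coding, and the values below are summed over each gene.

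The RefSeq promoter windows of Lef1 and Tcf7l1, from 250 bases before to 50 bases after a start site, are shown because these genes had the largest rises of the family in the first 24 h after 2i. The short core CTTTG of Tcf/Lef sites, or its reverse complement CAAAG, is in capitals. The windows below are Lef1 start 1 (GRCm38.p6 chr3:131110047-131110346, plus strand), Lef1 start 4, an internal start (chr3:131156044-131156343, plus strand), and the single Tcf7l1 start (chr6:72788996-72789295, minus strand).
Lef1 start 1: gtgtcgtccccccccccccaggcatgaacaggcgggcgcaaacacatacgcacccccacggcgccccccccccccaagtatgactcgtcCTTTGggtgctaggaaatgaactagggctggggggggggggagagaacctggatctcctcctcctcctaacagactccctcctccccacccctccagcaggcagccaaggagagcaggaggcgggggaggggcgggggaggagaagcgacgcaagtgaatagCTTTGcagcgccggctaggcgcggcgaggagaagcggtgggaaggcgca
Lef1 start 4: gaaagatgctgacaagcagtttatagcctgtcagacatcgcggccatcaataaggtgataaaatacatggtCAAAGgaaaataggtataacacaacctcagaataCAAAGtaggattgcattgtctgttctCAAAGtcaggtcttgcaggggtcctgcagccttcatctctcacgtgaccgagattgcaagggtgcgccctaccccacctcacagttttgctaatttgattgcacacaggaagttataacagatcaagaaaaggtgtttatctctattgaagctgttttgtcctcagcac
Tcf7l1 start 1: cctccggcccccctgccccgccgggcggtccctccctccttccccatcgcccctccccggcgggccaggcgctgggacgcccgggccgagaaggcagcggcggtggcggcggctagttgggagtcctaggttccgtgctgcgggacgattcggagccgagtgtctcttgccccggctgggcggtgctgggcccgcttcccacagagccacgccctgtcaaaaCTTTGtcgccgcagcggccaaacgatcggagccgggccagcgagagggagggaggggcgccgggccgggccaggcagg
Counted from 1 at the 5′ end of each window, the core lay at positions 90 and 252 in Lef1 start 1, at 72, 106 and 132 in Lef1 start 4, and at 223 in Tcf7l1. Over the 9 RefSeq windows of the family, the core on either strand was found in all 4 windows of Lef1, the 1 window of Tcf7l1 and both windows of Tcf7l2, and in neither window of Tcf7. The windows of Lef1 starts 1 and 2 overlap and hold the same core sites. This core occurs in 53.9% of 32851 mouse windows of this length. The longer cores CTTTGAA and CTTTGAT, of which at least 1 was found on either strand in 8.65% of all windows, had no match in the 9 windows. The E2F core TCCCGCC, found in 11.3% of all windows, had no match in them either. A match to these letters is a description of the sequence and not evidence of binding, and the windows leave out distal sites.

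Sequencing depth is unknown, since neither unit keeps it. Between 12446 and 14151 genes per library reached 1 FPKM, and between 13924 and 15351 reached 1 TPM. In the FPKM table shGFP replicates 3 and 4 and both shE2F6 libraries stood apart, with 19.3% to 22.9% of their summed level in mitochondrial transcripts against 6.23% to 10.3% in the other 8 libraries. The shGFP libraries lay in close pairs. The median absolute log2 difference was 0.057 between replicates 1 and 2, 0.066 between 3 and 4 and 0.051 between 5 and 6. Between pairs it was 0.158 to 0.371. The labels name no batch, and the tests took all 6 as separate libraries, so p-values against shGFP may be too small. Where a table held a control of the same cells and time, the knockdowns were present in the libraries labelled for them. For shBcat epiLC at 24 and 48 h there was no such control, so the knockdown is not shown. Ctnnb1, the gene of β-catenin, stood at 116 ± 20.3 FPKM (SD, n = 6) with shGFP and 6.59 ± 0.021 (n = 2) with shBcat in V6.5 cells, at 505 ± 20.2 and 64.4 ± 17.1 TPM (n = 3 each) in QKO cells, and at 445 ± 4.56 and 144 ± 2.15 TPM (n = 2 each) in 96 h epiLC. E2f6 stood at 10.0 ± 0.82 FPKM with shGFP and 3.06 ± 0.69 with shE2F6, and Cbx3, the gene of HP1γ, at 63.5 ± 5.88 and 6.92 ± 0.46 with shHP1r. Naive markers were present in all libraries labelled 2i. Summed levels of the 8 naive markers fell from 2185 to 2225 TPM in V6.5 2i to 594 to 626 TPM at 48 h of epiLC, where 8 formative markers (Lef1 among them) had gone from 120 to 126 TPM in 2i through 1020 to 1027 TPM at 24 h to 430 to 437 TPM.

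Naive V6.5 cells in 2i without a hairpin expressed mainly Tcf7 and Tcf7l1. Tcf7 stood at 33.31 and 35.78 TPM in the 2 libraries and Tcf7l1 at 21.27 and 22.31 TPM. Lef1 followed at 5.33 and 5.12 TPM and Tcf7l2 at 4.07 and 4.43 TPM, so that the order Tcf7, Tcf7l1, Lef1, Tcf7l2 held in both libraries with no overlap between neighbours. Of the summed level of the family, 65.8 ± 2.59 TPM (SD, n = 2), Tcf7 made up 52.5%, Tcf7l1 33.1%, Lef1 7.95% and Tcf7l2 6.46%. In the separately normalized V6.5 shGFP libraries, Tcf7 (22.9 ± 1.72 FPKM, n = 6) and Tcf7l1 (31.5 ± 10.9 FPKM) overlapped in level. Lef1 (1.70 ± 0.51 FPKM) and Tcf7l2 (1.77 ± 0.24 FPKM) also overlapped there, far below the more abundant pair.

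**Figure D1:**
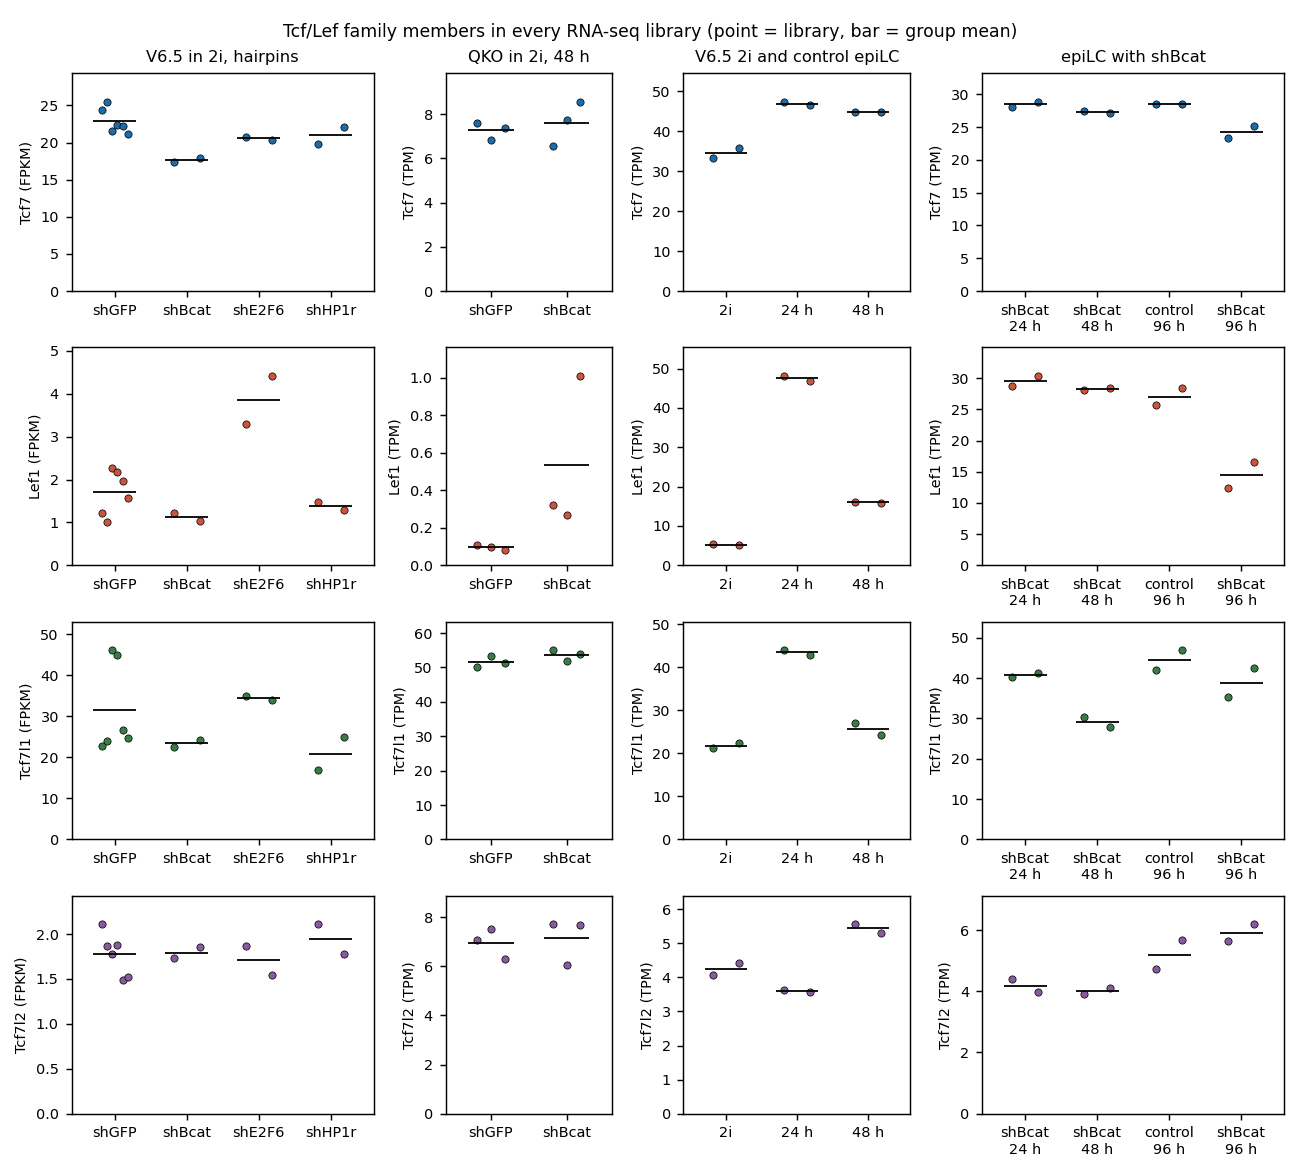
Level of each Tcf/Lef gene (rows) in every RNA library, in FPKM for the V6.5 hairpin table and TPM for the 3 other tables (columns). Points are libraries and bars are group means, axes start at 0 and differ between panels. Lef1 at 24 h of epiLC (46.89 and 48.14 TPM) lies far above its 2i libraries (5.12 and 5.33 TPM), and Tcf7l1 is spread from 22.7 to 46.1 FPKM among the 6 shGFP libraries.

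QKO cells in 2i had another make-up of family transcripts. Tcf7l1 was the most abundant member, at 50.08, 53.43 and 51.38 TPM in the 3 shGFP libraries, and made up 78.3% of a summed level of 66.0 ± 1.67 TPM (SD, n = 3). Tcf7 stood at 7.59, 6.83 and 7.40 TPM and Tcf7l2 at 7.08, 7.53 and 6.28 TPM, which overlap, and Lef1 at 0.11, 0.10 and 0.08 TPM. The QKO and V6.5 2i libraries lie in tables that were normalized apart, so their levels were not tested against each other. Mean Tcf7 was 7.27 TPM in QKO shGFP cells and 34.5 TPM in V6.5 2i cells, and mean Lef1 0.0967 and 5.22 TPM. Mean Tcf7l1 was 51.6 and 21.8 TPM, and mean Tcf7l2 6.96 and 4.25 TPM. On the log2(value + 1) scale a difference at least as large as that of Tcf7 was seen for 4.57% of 16559 genes, and the figure was 2.97% for Lef1, 15.4% for Tcf7l1 and 41.6% for Tcf7l2. QKO shGFP libraries also held more RNA of fibroblast markers, 235 to 554 TPM summed over 8 genes against 3.01 to 4.07 TPM in V6.5 2i. Neural (76.8 to 78.8 against 12.1 to 14.1 TPM), endoderm (14.7 to 22.6 against 5.34 to 5.96 TPM) and naive markers (2684 to 2884 against 2185 to 2225 TPM) were higher too. Mesoderm (5.34 to 6.51 against 7.87 to 7.99 TPM) and formative markers, Lef1 among them (99.8 to 115 against 120 to 126 TPM), were lower. The part of these differences in the Tcf/Lef levels was not tested. In bulk RNA fewer cells of a type and less RNA per cell cannot be told apart, and transcript levels do not show whether a protein was made. Whether any Tcf/Lef gene is altered in QKO cells could not be settled from the labels. Levels summed over a gene cannot show a small deletion, so these values do not show which members were functional.

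**Figure D2:**
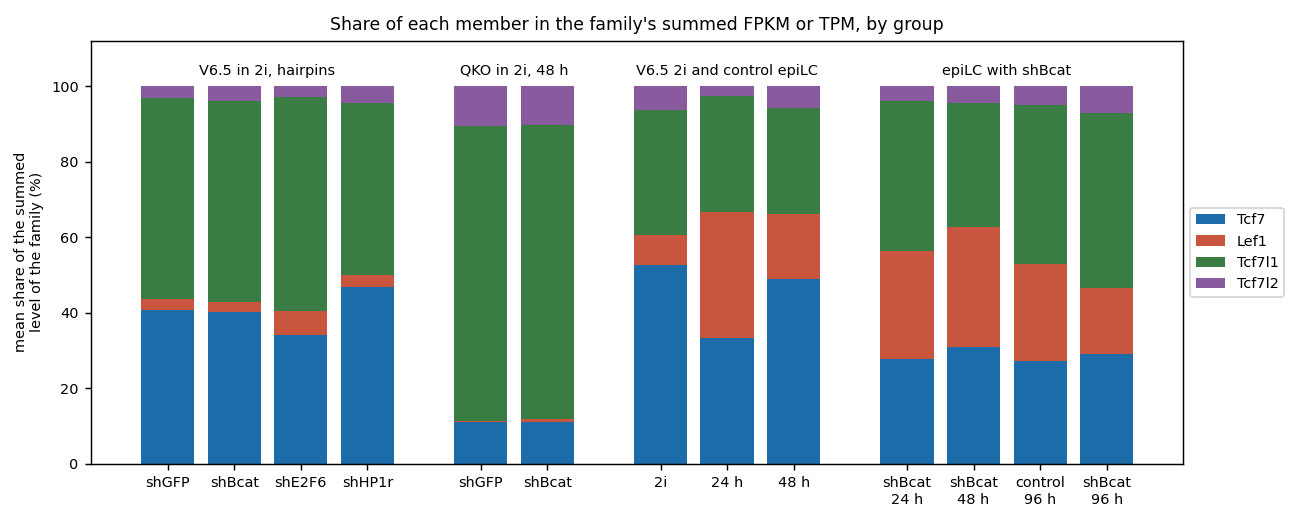
Mean share of each Tcf/Lef gene in the summed level of the 4 genes, in percent, for the 13 groups, ordered by table. In V6.5 2i cells Tcf7 holds 52.5% and Tcf7l1 33.1%, in QKO shGFP cells Tcf7l1 holds 78.3%, and at 24 h of epiLC Tcf7, Lef1 and Tcf7l1 hold 33.2%, 33.6% and 30.7%.

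In naive V6.5 cells with shBcat only Tcf7 passed the test, with a small fall. Tcf7 stood at 17.4 and 17.9 FPKM with shBcat and at 24.4, 25.5, 21.6, 22.3, 22.2 and 21.1 FPKM in shGFP replicates 1 to 6. Both shBcat libraries thus lay below all 6 controls, which themselves lay in close pairs. The log2 change was -0.35 (SE 0.09, 95% interval -0.56 to -0.15), with an adjusted p of 0.0418 (limma on log2(value + 1), two-sided, Benjamini-Hochberg over 14407 genes). Of all genes tested, 8.71% were called in this comparison, 17.6% had shBcat libraries below all controls, and 26.2% had a change at least as large in either direction. Neural markers (3 of 4 listed) summed to 47.3 and 52.9 FPKM with shBcat against 21.3 to 32.8 FPKM with shGFP, with Sox1 rising (1 of 3 tested), and mesoderm markers (3 of 5 listed) to 0.998 and 1.25 FPKM against 3.13 to 8.05 FPKM, with T and Eomes falling (2 of 2 tested). Their part in the Tcf7 value was not tested. The Tcf7 call was lost without shGFP replicate 1, 2, 4 or 5 (adjusted p 0.0577 to 0.0717), with median-of-ratios scaling (0.0578) and with only the 2 compared groups in the fit (0.0602). It was also lost without shBcat replicate 1 or 2 and with libraries averaged in pairs. Each of these last settings leaves 1 value for shBcat, so the loss cannot be read as a result about Tcf7.

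The other members did not pass with shBcat. Lef1 stood at 1.21 and 1.04 FPKM against 1.02 to 2.26 FPKM in shGFP (median 1.76), a log2 change of -0.33 (SE 0.19, adjusted p = 0.349). Tcf7l1 stood at 22.6 and 24.2 FPKM against 22.7 to 46.1 FPKM (median 25.6), a log2 change of -0.35 (SE 0.28, adjusted p = 0.515). Tcf7l2 stood at 1.73 and 1.86 FPKM against 1.49 to 2.11 FPKM (median 1.82), a log2 change of 0.01 (95% interval -0.23 to 0.26, adjusted p = 0.96). For Lef1 and Tcf7l1 the choice of controls set the result. With shGFP replicates 3 and 4 as the only controls, 7703 of 14199 genes were called. Both members were then called lower, Lef1 by -0.60 (adjusted p = 0.0075) and Tcf7l1 by -0.93 (adjusted p = 0.00273). With shGFP replicates 1 and 2 the changes were 0.000608 and 0.0056 (adjusted p = 0.999 and 0.987).

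Tcf7l1 and Lef1 were higher in the libraries with a high mitochondrial share. Tcf7l1 stood at 46.1 and 44.9 FPKM in shGFP replicates 3 and 4 and at 34.9 and 33.9 FPKM in the shE2F6 libraries, against 16.8 to 26.6 FPKM in the other 8 libraries of the table. Lef1 stood at 2.26, 2.17, 3.30 and 4.42 FPKM in the same 4 libraries, against 1.02 to 1.96 FPKM in the other 8. Tcf7 (20.4 to 22.3 FPKM against 17.4 to 25.5 FPKM) and Tcf7l2 (1.55 to 1.88 FPKM against 1.49 to 2.11 FPKM) overlapped between these sets of libraries. The same 4 libraries had the lowest summed levels of the 8 naive markers. These were 672 and 692 FPKM in shGFP replicates 3 and 4 and 596 and 584 FPKM with shE2F6, against 849 to 1213 FPKM in the other 8. The part of this difference in the Tcf7l1 and Lef1 values was not tested. All of these are values of libraries grouped after seeing the data, and carry no test.

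**Figure D3:**
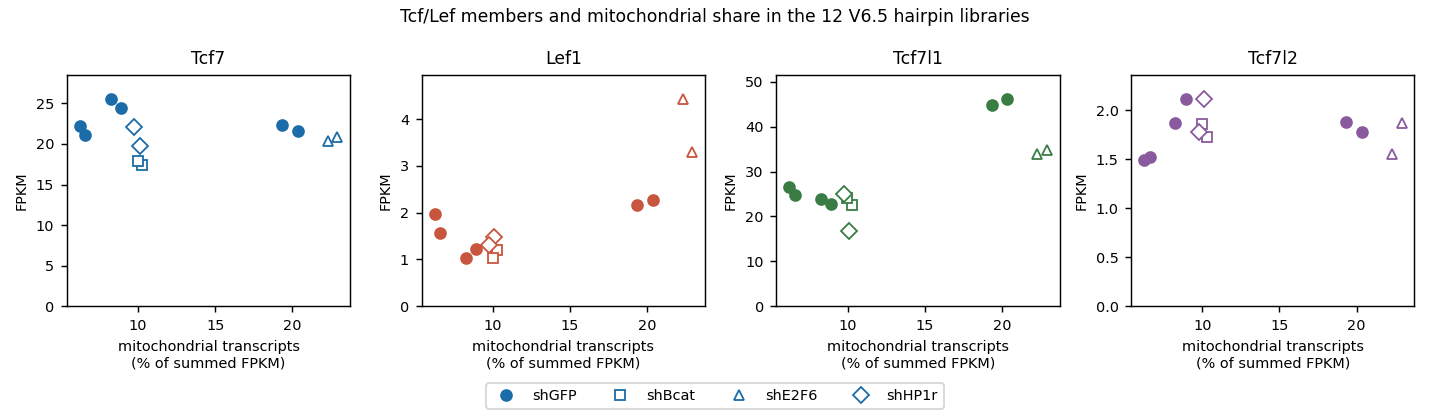
FPKM of each Tcf/Lef gene (y axis) against the percentage of summed FPKM in mitochondrial transcripts (x axis) in the 12 V6.5 hairpin libraries, with a symbol per hairpin. The 4 libraries at 19.3% to 22.9% hold the 4 highest values of Tcf7l1 and of Lef1, while Tcf7 and Tcf7l2 overlap.

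With shE2F6, Lef1 was the member with the largest difference from control. It stood at 3.30 and 4.42 FPKM, above all 6 shGFP libraries, at 2.27-fold the control mean. Its log2 change was 0.86 (SE 0.19, 95% interval 0.44 to 1.28), and it missed the threshold at an adjusted p of 0.056 (limma, unadjusted p = 0.000891). Of all genes 1.06% were called with shE2F6, 7.32% had both libraries above all controls, and the median change was -0.20. Lef1 passed without shGFP replicate 3 (0.92, adjusted p = 0.0234) or 4 (0.91, adjusted p = 0.0346), and without both (1.00, adjusted p = 0.000559). Far more genes passed in these fits, 4166 of 14393 without replicate 3, 3435 of 14389 without replicate 4 and 8495 of 14374 without both. With a term for the 4 libraries of high mitochondrial share the Lef1 change was 0.59 (adjusted p = 0.105).

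In the direct contrasts between hairpins, Lef1 was higher in the shE2F6 libraries than in those of the other knockdowns. Both shE2F6 libraries had a high mitochondrial share and no shBcat or shHP1r library did. Hairpin and set of libraries thus cannot be told apart in these contrasts. Lef1 was higher with shE2F6 than with shBcat (log2 change 1.19, SE 0.23, adjusted p = 0.0122), where 15.2% of all genes were called, and lower with shHP1r than with shE2F6 (-1.02, SE 0.23, adjusted p = 0.0199), where 15.5% were called. Both calls were lost with a term for the mitochondrial share (0.78, adjusted p = 0.0596, and -0.61, adjusted p = 0.157) and with libraries averaged in pairs. The first was also lost without shBcat replicate 1 or 2 or shE2F6 replicate 2, and the second without shE2F6 replicate 2 or shHP1r replicate 1 or 2. Averaging, or leaving out a library, leaves 1 value in a knockdown group, so these losses cannot be read as a result about Lef1. No other member passed in these contrasts, and none of the 4 passed between shHP1r and shBcat, where 9.31% of genes were called.

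Tcf7, Tcf7l1 and Tcf7l2 did not pass with shE2F6. Tcf7 stood at 20.8 and 20.4 FPKM, below all 6 controls as were 26.5% of genes, by -0.14 on the log2 scale (adjusted p = 0.284). That value lay above the median of all genes and became 0.10 with median-of-ratios scaling. Tcf7l1 at 34.9 and 33.9 FPKM lay inside the range of the controls, and its log2 change of 0.19 (SE 0.28; adjusted p = 0.635) became -0.39 against shGFP replicates 3 and 4 alone (adjusted p = 0.229) and was called at 0.48 with those replicates left out (adjusted p = 0.0118). Tcf7l2 stood at 1.87 and 1.55 FPKM, a log2 change of -0.03 (95% interval -0.28 to 0.22, adjusted p = 0.842).

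With shHP1r no member passed, while 7.59% of all genes did. Tcf7 stood at 19.8 and 22.1 FPKM (log2 change -0.12, adjusted p = 0.508) and Lef1 at 1.48 and 1.30 FPKM (-0.16, adjusted p = 0.692), both overlapping the controls. Tcf7l2 stood at 2.11 and 1.78 FPKM (0.09, adjusted p = 0.711). Tcf7l1 was uneven between the replicates, at 16.8 and 24.9 FPKM, with a log2 change of -0.53 (SE 0.28, 95% interval -1.16 to 0.09, adjusted p = 0.302). Here too the choice of controls mattered. Against shGFP replicates 3 and 4 alone, 7955 of 14199 genes were called. Tcf7l1 (-1.11, adjusted p = 0.00131) and Lef1 (-0.43, adjusted p = 0.027) were among those called lower. Against replicates 1 and 2 the value of Lef1 was 0.17 (adjusted p = 0.462). The 3 hairpins share their shGFP controls, so these comparisons are not independent of each other.

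**Figure D4:**
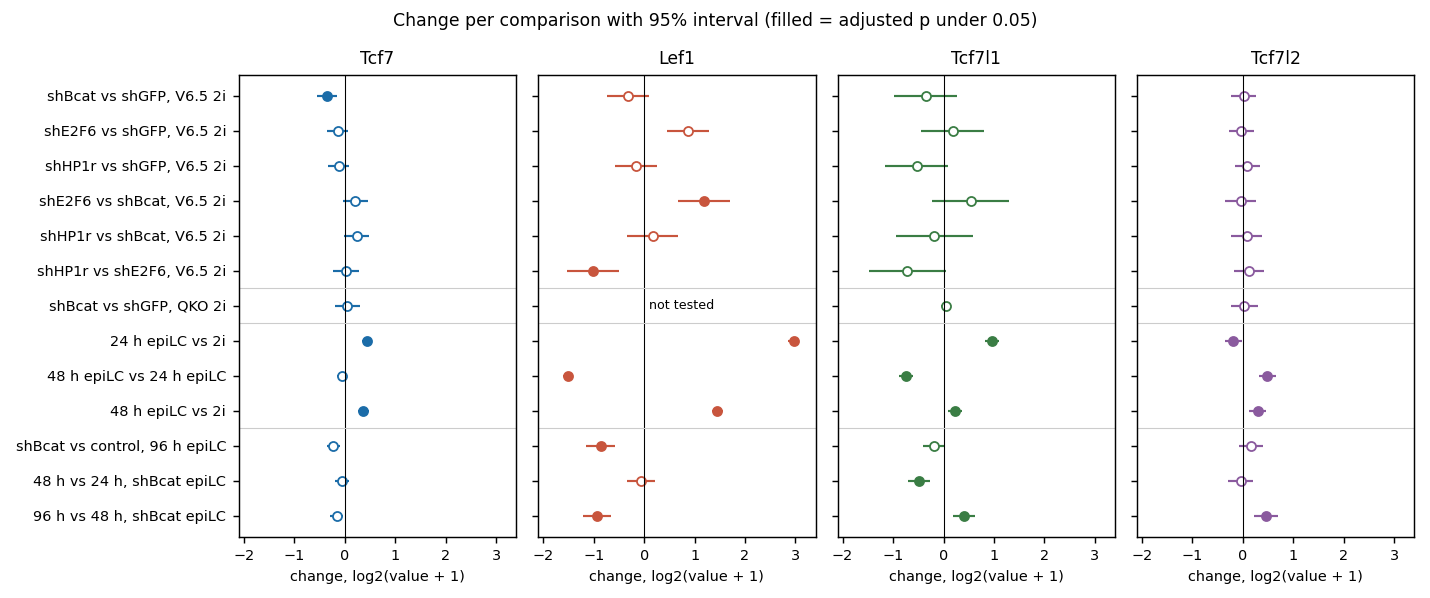
Change of each Tcf/Lef gene on the log2(value + 1) scale in the 13 comparisons, with the 95% interval of the limma fit. Filled points passed an adjusted p of 0.05, and grey lines separate the 4 tables. Lef1 moves furthest, 2.96 at 24 h of epiLC, and 3 members sit near 0 in QKO cells, where Lef1 was not tested.

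In QKO cells β-catenin knockdown left the 3 tested members near their control levels. Tcf7l1 stood at 55.06, 51.91 and 53.94 TPM with shBcat, overlapping the controls, with a log2 change of 0.05 (SE 0.04, 95% interval -0.05 to 0.16, adjusted p = 0.455). Tcf7 stood at 6.55, 7.73 and 8.57 TPM with shBcat, a log2 change of 0.05 (95% interval -0.19 to 0.29, adjusted p = 0.772). Tcf7l2 stood at 7.71, 6.06 and 7.69 TPM, a log2 change of 0.03 (95% interval -0.23 to 0.29, adjusted p = 0.886). In this comparison 2.15% of 15562 genes were called. The interval for Tcf7l1 is the narrowest and leaves room for a fall of at most 0.05 or a rise of at most 0.16.

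Lef1 missed the filter of at least 1 TPM in at least 2 libraries of the QKO table and was not tested with the other genes. It stood at 0.32, 0.27 and 1.01 TPM with shBcat and at 0.11, 0.10 and 0.08 TPM with shGFP, so that all 3 knockdown libraries lay above the controls, as they did for 10.9% of the genes tested, while shBcat replicate 3 stood well above the other two. The ratio of means was 5.52, and 3.05 without that library. The mean was 0.533 ± 0.41 TPM with shBcat and 0.0967 ± 0.015 TPM with shGFP (SD, n = 3 each). An exact permutation test of the 6 libraries gave p = 0.1 (two-sided), the smallest that 3 against 3 can give. With no filter on low values the log2(value + 1) change was 0.45 (SE 0.18), with an adjusted p of 0.307 from limma over 34887 genes. At these levels, with depth unknown, the number of reads behind the difference cannot be given. Fibroblast markers differed between the same groups, at 55.8 to 83.7 TPM summed over the 8 markers with shBcat against 235 to 554 TPM with shGFP, and 5 of 7 tested fell (Col1a1, Col3a1, Postn, Lum and Dcn). Mesoderm markers summed to 8.03 to 8.66 TPM with shBcat against 5.34 to 6.51 TPM (1 of 1 tested rose). Neural markers (82.3 to 88.7 against 76.8 to 78.8 TPM) were higher and endoderm markers (9.86 to 11.7 against 14.7 to 22.6 TPM) lower, with no gene of either list called. Their part in the Lef1 values was not tested.

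On leaving 2i for epiLC conditions all 4 genes changed within 24 h, and Lef1 changed most. Lef1 went from 5.33 and 5.12 TPM in 2i to 48.14 and 46.89 TPM at 24 h, a 9.09-fold rise (log2 change 2.96, SE 0.04, adjusted p = 4.48e-08, limma). Among genes above 1 TPM, Lef1 moved from above 30.2% to 31.0% of them to above 77.2% to 77.6%. A change this large was seen for 0.882% of 16559 genes, in a comparison in which 76% of genes were called. Tcf7l1 rose from 21.27 and 22.31 to 44.03 and 42.96 TPM, a 2.00-fold rise (log2 change 0.97, SE 0.06, adjusted p = 6.87e-06). Tcf7 rose from 33.31 and 35.78 to 47.45 and 46.52 TPM (log2 change 0.43, SE 0.04, adjusted p = 7.39e-05). Tcf7l2 went the other way, from 4.07 and 4.43 to 3.64 and 3.56 TPM (-0.19, SE 0.07, adjusted p = 0.0442), a call that was lost in 7 of 11 alternatives (adjusted p 0.0193 to 0.187 over all of them), median-of-ratios scaling (0.112) and the omission of 2i replicate 2 (0.187), 24 h replicate 1 (0.103) or 24 h replicate 2 (0.142) among these. The summed level of the family went from 65.8 ± 2.59 to 142 ± 2.35 TPM (SD, n = 2), with Tcf7, Lef1 and Tcf7l1 at near-equal shares of 33.2%, 33.6% and 30.7%.

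Between 24 and 48 h Lef1 and Tcf7l1 fell back, and Tcf7l2 rose. Lef1 fell to 16.18 and 15.85 TPM (log2 change -1.51, SE 0.04, adjusted p = 5.68e-07) and Tcf7l1 to 27.07 and 24.24 TPM (-0.74, SE 0.06, adjusted p = 2.94e-05). Tcf7l2 rose to 5.56 and 5.31 TPM (0.48, SE 0.07, adjusted p = 0.000698). Tcf7 held near its 24 h level, at 44.95 and 44.94 TPM (-0.06, 95% interval -0.16 to 0.04, adjusted p = 0.215). That value sits against a median of 0.12 for all genes, and with median-of-ratios scaling Tcf7 was called lower (-0.23, adjusted p = 0.0018). In this step 74.2% of genes were called.

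At 48 h all 4 members lay above their 2i levels. The log2 changes against 2i were 1.45 for Lef1 (3.07-fold, adjusted p = 3.26e-07), 0.37 for Tcf7 (adjusted p = 0.000169), 0.29 for Tcf7l2 (adjusted p = 0.00755) and 0.22 for Tcf7l1 (adjusted p = 0.0102), where 75.9% of genes were called and the median of all genes was 0.11. The call for Tcf7l1 was lost with median-of-ratios scaling (0.12, adjusted p = 0.0893) and without 2i replicate 1 (adjusted p = 0.0553). Within this table the order of levels was 24 h, 48 h, 2i for Lef1 and for Tcf7l1, and 48 h, 2i, 24 h for Tcf7l2, with no overlap between neighbouring groups. Groups did not overlap for 87.7% of all genes between 24 h and 2i, 86.9% between 48 and 24 h and 87.2% between 48 h and 2i. Tcf7 at 24 and 48 h did not overlap either, but differed by less than the test could call.

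**Figure D5:**
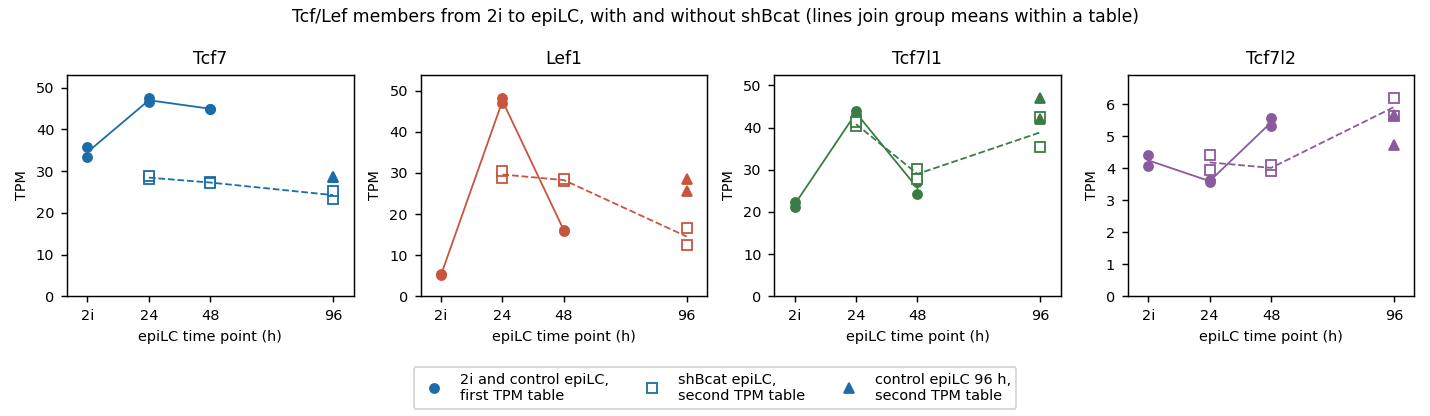
TPM of each Tcf/Lef gene in 2i and at 24, 48 and 96 h of epiLC. Filled circles (2i and control epiLC) come from one TPM table, open squares (shBcat) and filled triangles (control at 96 h) from another, normalized apart, and lines join group means within a table. Lef1 peaks at 24 h in control epiLC, and at 96 h its shBcat libraries (12.42 and 16.64 TPM) lie below the control libraries (25.63 and 28.48 TPM).

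At 96 h of epiLC, Lef1 was lower in the shBcat libraries than in the control, and no other member passed. No hairpin is given in the labels of these controls. The loss of β-catenin and the carrying of a hairpin thus cannot be told apart here. Lef1 stood at 12.42 and 16.64 TPM with shBcat and at 25.63 and 28.48 TPM in control epiLC, below both controls, with a ratio of means of 0.537. The log2 change was -0.86 (SE 0.12, 95% interval -1.14 to -0.59, adjusted p = 0.00766, limma over 15304 genes). In this comparison 4.82% of genes were called, and 1.08% had a change at least as large. The call was lost without control replicate 2 (-0.79, adjusted p = 0.0542). Neural markers summed to 108.8 and 111.1 TPM with shBcat against 84.9 and 91.8 TPM in the control (1 of 3 tested rose, Sox1), endoderm markers to 5.95 and 6.64 TPM against 7.80 and 8.22 TPM (1 of 2 fell, Foxa2), and mesoderm markers to 10.1 and 10.8 TPM against 12.16 and 12.04 TPM (1 of 2 fell, T). Naive markers summed to 650 and 656 TPM with shBcat against 602 and 614 TPM (1 of 7 tested rose). Fibroblast markers summed to 9.18 and 9.40 TPM against 8.18 and 7.86 TPM (1 of 4 tested rose). Formative markers, Lef1 among them, overlapped at 304 and 337 TPM against 298 and 325 TPM. The mitochondrial share was 4.87% and 4.76% with shBcat and 3.91% and 3.83% in the control. The part of these differences in the Lef1 value was not tested. Tcf7 stood at 23.37 and 25.13 TPM against 28.54 and 28.49 TPM, below the controls as were 24.6% of genes, and missed the threshold (log2 change -0.23, SE 0.06, adjusted p = 0.0733). Tcf7l1 at 35.35 and 42.41 TPM overlapped the controls at 42.01 and 46.96 TPM (-0.19, adjusted p = 0.316), as did Tcf7l2 at 5.64 and 6.19 TPM against 4.72 and 5.66 TPM (0.16, adjusted p = 0.447). The summed level of the family was 83.6 ± 9.61 TPM with shBcat and 105 ± 6.14 TPM in the control. The log2 changes of Lef1 with shBcat in 96 h epiLC and in V6.5 2i cells (-0.86 and -0.33) come from different tables, and their difference was not tested.

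Over time within shBcat epiLC, Lef1 stayed level to 48 h and then fell. It stood at 28.83 and 30.38 TPM at 24 h, 28.07 and 28.44 TPM at 48 h and 12.42 and 16.64 TPM at 96 h. The step from 24 to 48 h was -0.06 (95% interval -0.34 to 0.21, adjusted p = 0.72) and that from 48 to 96 h was -0.93 (SE 0.12, adjusted p = 0.00127). Tcf7l1 fell from 40.33 and 41.32 to 30.26 and 27.77 TPM at 48 h (-0.48, SE 0.10, adjusted p = 0.00687) and rose again to 35.35 and 42.41 TPM (0.41, SE 0.10, adjusted p = 0.0143). Tcf7l2 went from 4.41 and 3.96 through 3.92 and 4.11 to 5.64 and 6.19 TPM, with a rise in the later step (0.46, SE 0.10, adjusted p = 0.0122). Tcf7 stood at 28.01 and 28.87, 27.42 and 27.10, and 23.37 and 25.13 TPM, and passed in neither step (adjusted p = 0.476 and 0.0623). Of all genes 33.4% were called from 24 to 48 h and 35% from 48 to 96 h. Without 48 h shBcat replicate 2, the calls of Tcf7l1 (adjusted p = 0.0523 and 0.0924) and Tcf7l2 (0.0543) were lost. Those of the later step were also lost without 96 h shBcat replicate 2 (0.0598 and 0.0609), that of Tcf7l2 without 48 h replicate 1 (0.0691), and that of Tcf7l1 with no filter on low values (0.0528).

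Control and shBcat epiLC at 24 and 48 h were in different tables, so their levels stand side by side untested. At 24 h mean Lef1 was 29.6 TPM with shBcat and 47.5 TPM in the control, and mean Tcf7 was 28.4 and 47.0 TPM. At 48 h mean Lef1 was 28.3 TPM with shBcat and 16.0 TPM in the control, the opposite order, and mean Tcf7 was 27.3 and 44.9 TPM. Mean Tcf7l1 was 40.8 and 43.5 TPM at 24 h and 29.0 and 25.7 TPM at 48 h, and mean Tcf7l2 4.19 and 3.60 TPM, then 4.02 and 5.44 TPM. The median difference of all genes between these tables was -0.06 at 24 h and -0.29 at 48 h.

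The corepressors through which Tcf/Lef proteins repress (10 listed genes of the Groucho/TLE and CtBP families with Hdac1 and Hdac2) moved in both directions on leaving 2i. At 24 h of epiLC 4 of 10 tested rose and 5 fell, where 76% of all genes were called. Tle4, a Groucho corepressor, rose from 26.6 to 84.9 TPM (log2 change 1.64, adjusted p = 1.33e-07), while Tle5, a short family member that lacks the carboxy-terminal WD40 domain, fell from 184 to 54.9 TPM (-1.73, adjusted p = 1.33e-07). The CtBP corepressors Ctbp2 (89.1 to 200 TPM, 1.16) and Ctbp1 (50.1 to 83.7 TPM, 0.73) rose. By 48 h Tle4 had fallen to 37.2 TPM (-1.17, adjusted p = 6.92e-07). With shBcat in V6.5 2i cells, where 8.71% of all genes were called, 1 of 9 tested passed, Tle4 falling from 23.2 to 17.6 FPKM (-0.38, adjusted p = 0.0466), and with shE2F6 (1.06% of all genes called) 1 of 9, Ctbp1 falling from 19.5 to 11.2 FPKM (-0.73, adjusted p = 0.0471). None of 9 passed with shHP1r, and none of 10 with shBcat in QKO cells or in 96 h epiLC.

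Most coactivators and regulators of the complex were also called at 24 h, against 76% of all genes. Of 11 coactivators (β-catenin, plakoglobin, the Bcl9 and Pygopus adaptors and chromatin partners) 8 rose and 2 fell. The smallest p-values were those of Smarca4, the ATPase of BAF remodelling complexes (58.8 to 102.7 TPM, log2 change 0.79), and Cdc73, a subunit of the PAF complex (51.1 to 75.8 TPM, 0.56). From 24 to 48 h Jup, the gene of plakoglobin, rose from 26.9 to 101.2 TPM (1.87, adjusted p = 1.98e-07) and Ctnnb1 from 399 to 604 TPM (0.59, adjusted p = 1.17e-06). With shBcat, Ctnnb1 was the 1 coactivator that passed in V6.5 2i cells (of 10 tested), in QKO cells and in 96 h epiLC (of 11 tested each). Smarca4 fell with shHP1r, where 7.59% of all genes were called (46.4 to 35.1 FPKM, -0.39, adjusted p = 0.0298), the 1 of 10 that passed, and none of 10 passed with shE2F6. Of 10 regulators (inhibitors, kinases and ubiquitin ligases acting on β-catenin or Tcf proteins) 6 rose and 4 fell, Apc of the destruction complex falling from 51.3 to 31.3 TPM (-0.69, adjusted p = 1.68e-06) and Kdm2b rising from 47.9 to 91.2 TPM (0.92, adjusted p = 5.92e-06). With shBcat in V6.5 2i cells 1 of 9 regulators passed (8.71% of all genes), Xiap, a ubiquitin ligase that acts on Groucho/TLE, falling from 9.83 to 7.67 FPKM (-0.32, adjusted p = 0.0315). None passed with shE2F6 (of 9), with shHP1r (of 9), with shBcat in QKO cells (of 10) or with shBcat in 96 h epiLC (of 9).

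Among target genes of β-catenin and Tcf/Lef factors, 6 of 12 tested fell with shBcat in V6.5 2i cells and none rose, where 8.71% of all genes were called, with a median log2 change of -0.93 against 0.01 for all genes. Axin2, a negative feedback gene, went from 12.4 ± 0.33 to 0.928 ± 0.024 FPKM (log2 change -2.80, adjusted p = 7.6e-07), and Cdx1, a caudal homeobox gene, from 18.9 ± 8.6 to 0.107 ± 0.0071 FPKM (-4.03, adjusted p = 0.0003). Tnfrsf19, a receptor gene, went from 6.91 to 1.07 FPKM (-1.93) and Notum, a secreted Wnt deacylase, from 14.7 to 5.21 FPKM (-1.31), and T and Sp5 also fell. In QKO cells, where 2.15% of all genes were called, 1 of 9 tested fell, Ccnd1 (cyclin D1), from 75.0 to 58.8 TPM (-0.34, adjusted p = 0.0481), and the median was -0.13 against -0.04. Axin2 in QKO cells stood at 5.82 ± 0.26 TPM with shGFP and 5.64 ± 0.46 TPM with shBcat (-0.04, adjusted p = 0.801). At 96 h of epiLC, where 4.82% of all genes were called, 2 of 12 fell, T from 3.87 to 1.92 TPM (-0.74, adjusted p = 0.0294) and Cdx2 from 3.81 to 2.31 TPM (-0.54, adjusted p = 0.0456), while Axin2 stood at 8.59 TPM in the control and 7.32 TPM with shBcat (-0.21, adjusted p = 0.348). None of 12 passed with shE2F6 (1.06% of all genes called), and with shHP1r (7.59%) Nkd1 rose from 0.632 to 1.195 FPKM (0.43, adjusted p = 0.0306) and T fell from 0.938 to 0.316 FPKM (-0.55, adjusted p = 0.0341). The V6.5 and QKO responses lie in different tables, and their difference was not tested.

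While Lef1 and Tcf7l1 rose at 24 h of epiLC, Wnt targets went both ways. Of 14 tested 4 rose and 6 fell, a share called near the 76% of all genes. Myc rose from 0.675 to 69.4 TPM (log2 change 5.39, adjusted p = 1.91e-08) and Ccnd1 from 28.1 to 96.4 TPM (1.74, adjusted p = 1.16e-07), while Cdx1 fell from 53.3 to 0.535 TPM (-5.14, adjusted p = 3.23e-08) and Axin2 from 22.5 to 5.75 TPM (-1.80, adjusted p = 5.52e-07). From 24 to 48 h 8 rose and 3 fell, where 74.2% of all genes were called, Fst, the gene of follistatin, rising from 2.03 to 15.2 TPM (2.42) and Notum falling from 15.1 to 1.21 TPM (-2.88).

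Genes known to be repressed by Tcf7l1 in mouse ES cells were measured as a list of 8. From 2i to 24 h, when Tcf7l1 rose, 1 of them rose and 7 fell, with a median log2 change of -2.38 against -0.04 for all genes, of which 76% were called. The 8 naive markers, which share Nanog and Esrrb with this list, had a median of -2.83, with 7 lower and 1 higher. Nanog fell from 603 to 46.9 TPM (-3.66, adjusted p = 3.45e-08), Esrrb from 142 to 18.6 TPM (-2.87, adjusted p = 6.89e-08), Tfcp2l1 from 81.9 to 2.04 TPM (-4.77, adjusted p = 9.1e-08) and Nr5a2 from 29.9 to 5.62 TPM (-2.22, adjusted p = 2.11e-07). The gene that rose was Foxd3, a forkhead factor, from 1.28 to 16.4 TPM (2.94, adjusted p = 4.19e-07). From 24 to 48 h, when Tcf7l1 fell, 4 rose and 4 fell (74.2% of all genes called), with Nanog rising to 166 TPM (1.80, adjusted p = 4.79e-07), and Klf2 (29.0 to 5.13 TPM, -2.29), Nr5a2 (5.62 to 1.04 TPM, -1.69) and Foxd3 (16.4 to 2.29 TPM, -2.41) falling. With shBcat in V6.5 2i cells 2 of 8 fell (8.71% of all genes called), Lefty2, a Nodal antagonist (72.4 to 24.5 FPKM, -1.52, adjusted p = 0.00422), and Tfcp2l1 (62.2 to 27.1 FPKM, -1.13, adjusted p = 0.0395). In QKO cells none of 8 passed, and none of 8 passed with shE2F6 or shHP1r. At 96 h of epiLC Lefty2 fell from 113 to 79.3 TPM (-0.50, adjusted p = 0.00359) and Foxd3 rose from 0.765 to 1.52 TPM (0.51, adjusted p = 0.0481) with shBcat.

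Within shBcat epiLC the same lists moved over time. From 24 to 48 h 4 of 10 corepressors fell, 2 of 11 coactivators rose and 2 fell, 1 of 9 regulators fell, 6 of 12 Wnt targets rose and 1 fell, and 2 of 8 Tcf7l1-repressed genes rose and 5 fell, where 33.4% of all genes were called. From 48 to 96 h, the step in which Lef1 fell, 5 of 12 Wnt targets rose and 1 fell, Fst rising from 1.58 to 10.96 TPM (log2 change 2.22, adjusted p = 3.54e-05) and Axin2 from 5.09 to 7.32 TPM (0.44, adjusted p = 0.0175). In that step 1 corepressor of 10 rose and 3 fell, 4 coactivators of 11 rose, 5 regulators of 9 rose and 1 fell, and 2 Tcf7l1-repressed genes of 8 rose and 5 fell, where 35% of all genes were called.

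Across the 13 groups, each taken relative to the mean of its own table, the members resembled each other to different degrees. Pearson's r, a description over groups that share tables and libraries, was 0.77 between Lef1 and Tcf7, 0.74 between Lef1 and Tcf7l1 and 0.54 between Tcf7 and Tcf7l1. It was -0.47 between Lef1 and Tcf7l2. The spread over groups was 0.71 for Lef1, 0.29 for Tcf7l1, 0.15 for Tcf7l2 and 0.13 for Tcf7 (SD, log2). Likeness was ranked among 3461 other genes with a spread of at least 0.3 for Lef1, and 3462 for the other members. Those most like Lef1 were Gclc (r = 0.94), Pfn1 (0.92), Pa2g4 (0.92), Kti12 (0.91) and Nkrf (0.91), and those most like Tcf7l1 were Csnk2b (0.90), Acer2 (0.84), Pqbp1 (0.84), Pa2g4 (0.82) and Zic2 (0.80). Those most like Tcf7 were Tmem39b (0.88), Ppp1r10 (0.86), Kti12 (0.83), Zfp628 (0.83) and Nckap5l (0.82), and those most like Tcf7l2 were Lix1l (0.95), Hdac7 (0.94), Cuedc1 (0.94), Rgmb (0.93) and D17H6S53E (0.93).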

How the data were processed

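The 32 RNA-seq libraries were analysed; 18 further samples of the 50, chromatin immunoprecipitation, were not analysed here. The authors deposited FPKM values for the 12 V6.5 hairpin libraries, for which the submitters' processing notes name bcl2fastq 2.18, TopHat2 2.0.13, Cufflinks 2.2.1, Bowtie2 and mm10. The authors deposited TPM values in 3 other tables, for which the notes name bcl2fastq 2.18, STAR, RSEM and Bowtie2 (versions of these 3 are not given in the sources used here). No FPKM value is 0, so any gene unread in 1 library is absent from that table. It also holds 1 column with negative values that was not used. A few abundant transcripts can lower all other FPKM or TPM values, so median-of-ratios scaling was tried. Depth could not be recovered, so no interval that needs it is given.

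Values were transformed to log2(value + 1), a scale that understates changes of low genes. A gene was tested in a table where it reached 1 in 2 or more libraries; all 4 members passed in 3 tables and 3 in the QKO table. One limma model per table, with a coefficient per group, variance trend and robust moderation (limma 3.58.1, statmod 1.5.0, R 4.3.3), gave two-sided p-values, adjusted by Benjamini-Hochberg across the table and called under 0.05. Simulated data were used to test the script. Nothing was tested across tables, which were normalized apart. Whether replicates came from separate cultures is not stated, and the p-values speak only to spread among these libraries, possibly technical. Groups share replicate numbers that the labels tie to nothing. The numbers were not taken as pairs.

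The members and lists were chosen with earlier results of these data known. The genes named are the 4 members, the knockdown targets, up to 4 called genes per list and comparison with the smallest p, and the 5 genes most like each member by Pearson's r over the 13 groups (without predicted genes, pseudogenes, and genes of ribosomal proteins or small RNAs). Axin2 where it did not pass, further called genes that complete a count, and cell type markers were named after their values were seen. Alternatives were a pseudocount of 0.1, a filter minimum of 5 or none, plain moderation, median-of-ratios scaling, the compared groups alone, a replicate block, each library left out, a term for high mitochondrial share, pair averages, and shGFP replicates 3 and 4 as controls of shE2F6. Other choices of shGFP pairs were added after seeing the data. Promoter windows (250 bases before to 50 after a start) are from RefSeq on GRCm38.p6, and all 4 members matched by symbol.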

Additional observations from a re-analysis of the deposited data

Results flagged for a closer look

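The Lef1 libraries lay on opposite sides of their controls with shBcat in QKO cells and in 96 h epiLC. In QKO cells Lef1 did not pass: it was under the filter, with an adjusted p of 0.307 when no filter was used (limma) and an exact permutation p of 0.1, the smallest that 3 against 3 can give. Its mean with shBcat was 5.52-fold the shGFP mean, at levels of 0.08 to 1.01 TPM, and 3.05-fold without shBcat replicate 3. All 3 knockdown libraries lay above the controls, as they did for 10.9% of the genes tested. Fibroblast markers differed between the same groups (55.8 to 83.7 TPM with shBcat, 235 to 554 TPM with shGFP). Summed mesoderm and neural markers were higher with shBcat and endoderm markers lower. The part of these differences was not tested. At 96 h of epiLC the ratio of means was 0.537, and both knockdown libraries lay below the controls. The difference between the QKO and epiLC comparisons was not tested, since the tables were normalized apart. No member had a library standing apart within the group of 6 shGFP libraries, the only group large enough to check.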

How the results depend on the processing

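Over the alternatives run, the following calls kept direction and call. For Lef1 they were 24 h against 2i, 48 h against 24 h, 48 h against 2i and 48 to 96 h with shBcat. For Tcf7 they were 24 h and 48 h against 2i. For Tcf7l1 they were 24 h against 2i and 48 h against 24 h. For Tcf7l2 they were 48 h against 24 h and 48 h against 2i. Of all values of single members under the alternatives, 599 kept direction and side of the threshold, 24 gained a call, 36 lost one and 37 changed sign, none of the last a called value. The cause of these changes was not tested.

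Counts of called members changed in the V6.5 hairpin table. A filter at 5 gave 0 for shE2F6 against shBcat and 0 for shHP1r against shE2F6, since it removes Lef1. Median-of-ratios scaling gave 0 for shBcat and 2 for shE2F6 against shBcat, where 1460 and 2631 of 14308 genes were called. Fitting only the compared groups gave 0 for shBcat, 3 for shE2F6 against shBcat and 2 for shHP1r against shE2F6. In those fits 1148 of 13990, 8982 of 13422 and 5291 of 13822 genes were called. The mitochondrial term gave 0 for shE2F6 against shBcat and 0 for shHP1r against shE2F6, where 1344 and 844 of 14407 genes were called. Pair averages kept none of these calls nor that of shBcat, but they leave 1 value per knockdown group. With shGFP replicates 1 and 2 as controls shE2F6 had 3 calls, with 5 and 6 it had 1, and with 3 and 4 left out 2. In the same fits 7908 of 14291, 8280 of 14287 and 8495 of 14374 genes were called. With 3 and 4 as controls shBcat had 3 calls and shHP1r 2, where 7703 and 7955 of 14199 genes were called. Leaving out 1 library gave 0 to 1 call for shBcat, shE2F6, shE2F6 against shBcat, shHP1r against shE2F6, shBcat at 96 h and 48 against 24 h with shBcat, and 1 to 3 for 96 against 48 h with shBcat.

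The labels tie replicate numbers to nothing. Deviations of same-numbered libraries correlated at -0.01, -0.04 and 0.13 in QKO cells, 0.28 between control and shBcat epiLC at 96 h, and -0.14 to 0.17 over the other groups, and with 2 numbers per group a pairing cannot be told from chance likeness. With the replicate block, where the FPKM controls are shGFP replicates 1 and 2 by construction, there were 3 calls for shE2F6, 2 for shE2F6 against shBcat and 2 for shHP1r against shE2F6. Of 14407 genes, 7685, 7826 and 8039 were called in these comparisons with the block. The sign changed with shBcat for Lef1 (0.000608), Tcf7l1 (0.0056) and Tcf7l2 (-0.10), and with shHP1r for Lef1 (0.17) and Tcf7l2 (-0.023), as with shGFP replicates 1 and 2 as controls. The block also removed the Tcf7l2 call at 24 h (adjusted p = 0.0675).

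Other sign changes were all of uncalled values. With median-of-ratios scaling they were Tcf7l2 with shBcat (-0.016), with shE2F6 (0.13), shE2F6 against shBcat (0.14) and shHP1r against shE2F6 (-0.12), and Tcf7 with shE2F6 (0.10) and shHP1r against shE2F6 (-0.33). With the mitochondrial term they were Tcf7l1 with shE2F6 (-0.39), shE2F6 against shBcat (-0.33) and shHP1r against shE2F6 (0.15), and Tcf7 in the last (-0.058). Against shGFP replicates 3 and 4 they were Tcf7l1 with shE2F6 (-0.39) and Tcf7l2 with shBcat (-0.018), and against 5 and 6 Tcf7l2 with shE2F6 (0.11). With 1 library left out, Tcf7l2 ranged from -0.019 to 0.048 with shBcat, -0.12 to 0.053 with shE2F6, -0.13 to 0.039 for shE2F6 against shBcat, -0.0074 to 0.15 for shHP1r against shBcat, -0.033 to 0.13 in QKO cells and -0.11 to 0.016 for 48 against 24 h with shBcat. Tcf7 ranged from -0.026 to 0.14 in QKO cells and -0.054 to 0.10 for shHP1r against shE2F6, and Tcf7l1 from -0.45 to 0.087 for shHP1r against shBcat. With depth unknown, no limit could be set for Lef1 in QKO cells.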
